A study of Mus musculus with 14 samples.

Results

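The 4 Hox clusters (a, b, c and d) were followed across fetuses of C57Bl6 mice exposed to ethanol in utero. Members were all probes whose single gene symbol in the platform annotation was a Hox gene of cluster a, b, c or d with a position number, which gave 35 of 21582 probes, for 34 of 15094 named genes. Hoxb3 had 2 probes, and each other gene had 1. The alcohol-fed group (n = 7) was carried by mothers kept at ethanol levels near 180 to 200 mg/dl between gestational days 15 and 18. Mothers of the pair-fed group (n = 7) received maltose dextrin over the same days, or maltose dextrose as the design text has it. All fetuses came from C57Bl6 mothers that ate freely until gestational day 14 and were delivered by caesarean on gestational day 19. The protocol gives 4 days of treatment and the titles 5. Each array held 1 sample in Cy5 and 1 common reference in Cy3, a total RNA pool of 7 animals fed ad libitum, which the labels also call weight-matched. This pool served as the single control sample, so its own spread is not in any test against it. No array had the dyes exchanged, so a dye effect cannot be told apart from a difference from the reference. The sources used here name no tissue. They also do not say whether replicates were of separate litters, and the p-values thus reflect only how far these samples spread, which may be technical.

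Hox genes encode homeodomain transcription factors that give cells their position along the head-to-tail axis. Within a cluster they are read out in the order in which they lie on the chromosome: low position numbers start early and reach far forward into the hindbrain and neck, and high numbers start late and act in the lumbar, sacral and tail regions, the distal limb and the urogenital tract. Genes with the same number in different clusters are copies of 1 ancestral gene (paralogs) and often share a role. Late in gestation the domains laid down earlier are still expressed in spinal cord, axial skeleton, limb, lung, gut and kidney, while the forebrain has almost none.

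All values are log2 ratios of sample over reference, centred on the median of each array, so 0 is the level of the array's middle probe. The direction of the ratio is the likely one, taken from how the labels and the design text order the channels. If it ran the other way, every sign below would be exchanged. A probe was tested where at least 4 arrays of each group had a value. Of the 35 Hox probes, 32 were tested, each for another gene, among 20876 probes in all, and 20 had a value on all 14 arrays. Hox values were missing in 11% of cases, against 5.29% over all probes, and 1 to 7 Hox values were missing on an array. Array medians before centring, with placeholders left out, ran from -0.62 to 0.68, missing values from 2.57% to 14.6% of probes, and correlations between arrays from 0.257 to 0.692.

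The first comparison, alcohol-fed against pair-fed fetuses, asks what ethanol changed beyond restricted feeding. No Hox gene passed the test of limma with Benjamini-Hochberg adjustment. The 32 tested genes had a median difference (alcohol-fed minus pair-fed) of 0.16 on the log2 scale, against 0.01 over all probes, with 19 genes above 0 and 13 below. Single arrays set this median: it was -0.02 without alcohol-fed replicate 7, 0.05 without alcohol-fed replicate 5, -0.0024 without pair-fed replicate 2 and 0.0086 without pair-fed replicate 6. Their median size of difference, sign aside, was 0.31, against 0.36 over all probes. Over all probes 0% were called at an adjusted p under 0.05. At an unadjusted p under 0.05, limma gave 1 of 32 Hox genes (Hoxd3) and 4.22% of all probes, and the exact permutation test gave 0 Hox genes and 855 probes, of which 0 held after adjustment. The smallest p that the exact test can give with 7 arrays against 7 is 0.0005828. After adjustment over all tested probes, a few probes at this p would not pass. The 0 after adjustment was thus nearly fixed in advance and says little about single probes. For every Hox gene the ranges of the groups overlapped. Over all probes, 0.115% had ranges that did not.

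Hoxd3, which patterns the first neck vertebrae, had the smallest p. It ran from -3.32 to -1.21 in alcohol-fed arrays, with a median of -2.55, and from -2.52 to 2.10 in pair-fed arrays, with a median of -1.31. All 7 alcohol-fed arrays lay below 0, as did 6 of 7 pair-fed arrays, and the highest pair-fed array stood far above its group. The difference was -1.32 ± 0.63 (limma SE, 95% interval -2.63 to -0.0031, p = 0.0495, adjusted p = 0.9996; exact permutation p = 0.0548). Without that highest array, pair-fed replicate 6, the difference was -0.78 and the unadjusted limma p 0.115.

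Hoxc4 and Hoxa7, both factors of the neck and upper trunk, followed. Hoxc4 read 0.38, -0.54, -2.26, -0.81 and 0.17 on the 5 alcohol-fed arrays with a value, and -1.47 to 2.36 (median 1.56) on 6 pair-fed arrays. Its difference was -1.53 ± 0.75, with a 95% interval of -3.12 to 0.07. Hoxa7 read -1.74, -4.07, -3.51 and 1.91 on 4 alcohol-fed arrays, and -0.30, 1.31, -1.64, 0.26 and 0.99 on 5 pair-fed arrays. Its difference was -1.98 ± 1.07 (95% interval -4.29 to 0.32), so the alcohol-fed mean was lower in both genes, within an error that reached past 0. Hoxa3, needed for thymus, parathyroid and the pharyngeal arches, stood the other way. It was at -5.44 to 1.02 (median -0.03) on 6 alcohol-fed arrays and at -1.32, -2.09, -2.68, -5.62 and -0.85 on 5 pair-fed arrays. The difference was 1.73 ± 1.08 (95% interval -0.57 to 4.04). It was 2.66 without alcohol-fed replicate 7, the lowest array of its group, and 0.95 without pair-fed replicate 4. Hoxa13 differed by 1.16 ± 0.76 and Hoxb6, a gene of the trunk, by -0.88 ± 0.61. Without pair-fed replicate 5 the Hoxb6 difference was -0.41, and without pair-fed replicate 3 it was -1.22. The limma adjusted p was 0.9996 for each of these genes, and the exact permutation p lay between 0.105 for Hoxc4 and 0.238 for Hoxa3.

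Absence of a call does not show equal levels, since the intervals were wide. The 95% interval of a Hox difference reached a median of 1.29 to each side on the log2 scale (0.74 to 2.31), against 1.09 over all probes. A 2-fold difference either way lay outside the interval for 1 of 32 Hox genes, Hoxb9, and for 8.84% of all probes. A 4-fold difference lay outside it for 22 of 32 Hox genes (68.8%) and for 76.8% of all probes. Hoxb9, which acts in the thoracic region, was at -0.56 to 1.17 (median 0.45) in alcohol-fed arrays and 0.20 to 1.22 (median 0.68) in pair-fed arrays, and its difference was -0.24 ± 0.36. The number of arrays, their spread and missing values all enter this width, and the part of each was not tested.

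**Figure D1:**
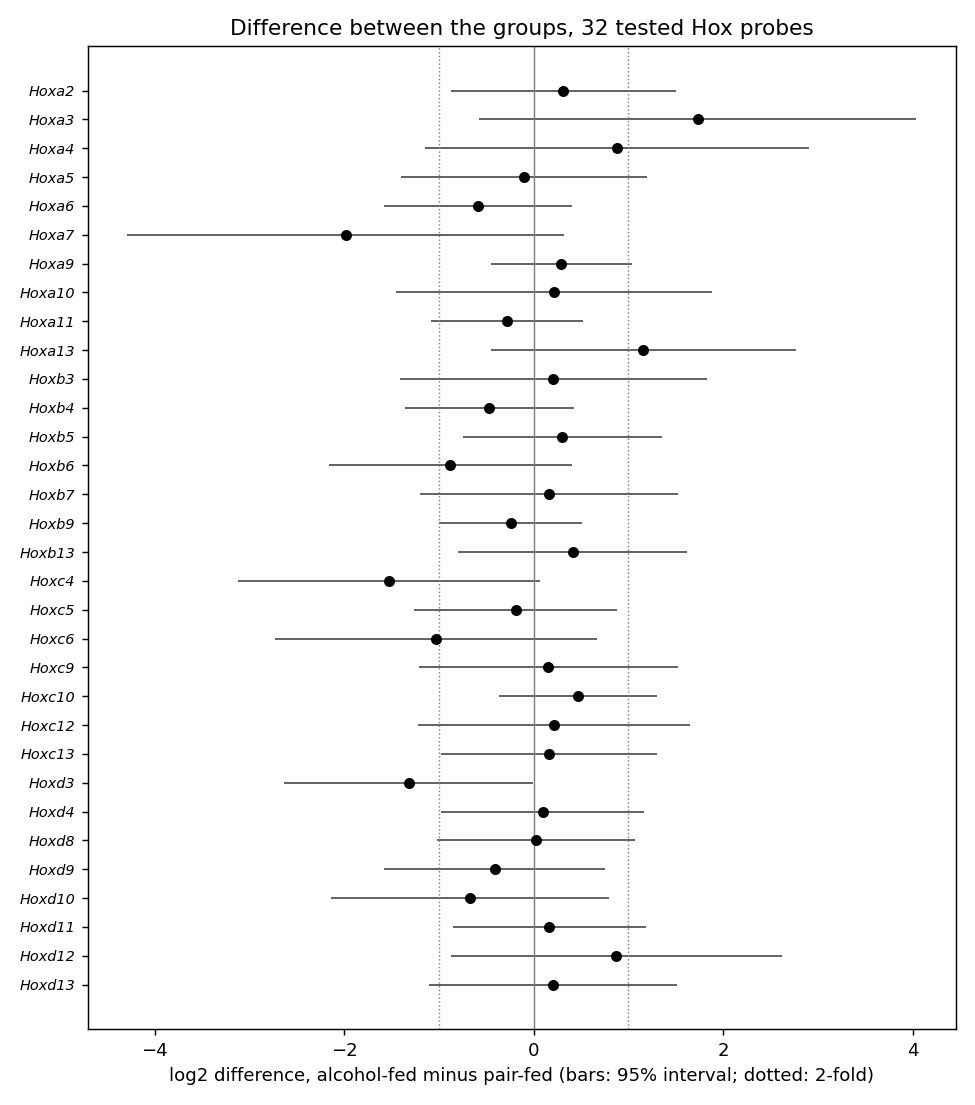
Difference between the group means (alcohol-fed minus pair-fed, log2 scale) of the 32 tested Hox genes, in order of cluster and position, with limma 95% intervals as bars. All intervals but that of Hoxd3 cross 0, and its upper end is at -0.0031.

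The second pair of comparisons set each group against the pool of freely fed animals. In alcohol-fed fetuses 8 of 32 Hox genes (25.0%) passed the limma test, against 23.5% of all probes. Hoxa5, Hoxb4 and Hoxb5 were higher (8.02% of all probes were higher), and Hoxa6, Hoxa13, Hoxc6, Hoxd3 and Hoxd9 were lower (15.5% of all probes were lower). In pair-fed fetuses 5 of 32 (15.6%) passed, against 21.3% of all probes. Hoxa5, Hoxa11 and Hoxb4 were higher (7.86% over all probes), and Hoxa3 and Hoxa13 were lower (13.5%). Hoxa5, Hoxa13 and Hoxb4 passed in both groups in the same direction, as did 13.0% of all probes. Both groups were read against the same pool, so a value the pool has by itself would appear in both. Quantile normalization, which moved the median of all probes in alcohol-fed fetuses from 0.01 to 0.14, gave 5 higher and 5 lower Hox genes there, beside 13.9% higher and 14.6% lower over all probes. Values as deposited, which moved the median of all probes in pair-fed fetuses from -0.03 to 0.09, gave 4 higher and 1 lower there, beside 8.89% and 9.83% over all probes, without Hoxa3 (limma adjusted p = 0.0880). These shares were not tested against the background. The median Hox log2 ratio was 0.04 in alcohol-fed and -0.03 in pair-fed fetuses, beside 0.01 and -0.03 over all probes, and the median size of the ratio, sign aside, was 0.59 and 0.64, beside 0.61 and 0.59. In such bulk RNA fewer cells of a type and less RNA per cell cannot be told apart.

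**Figure D2:**
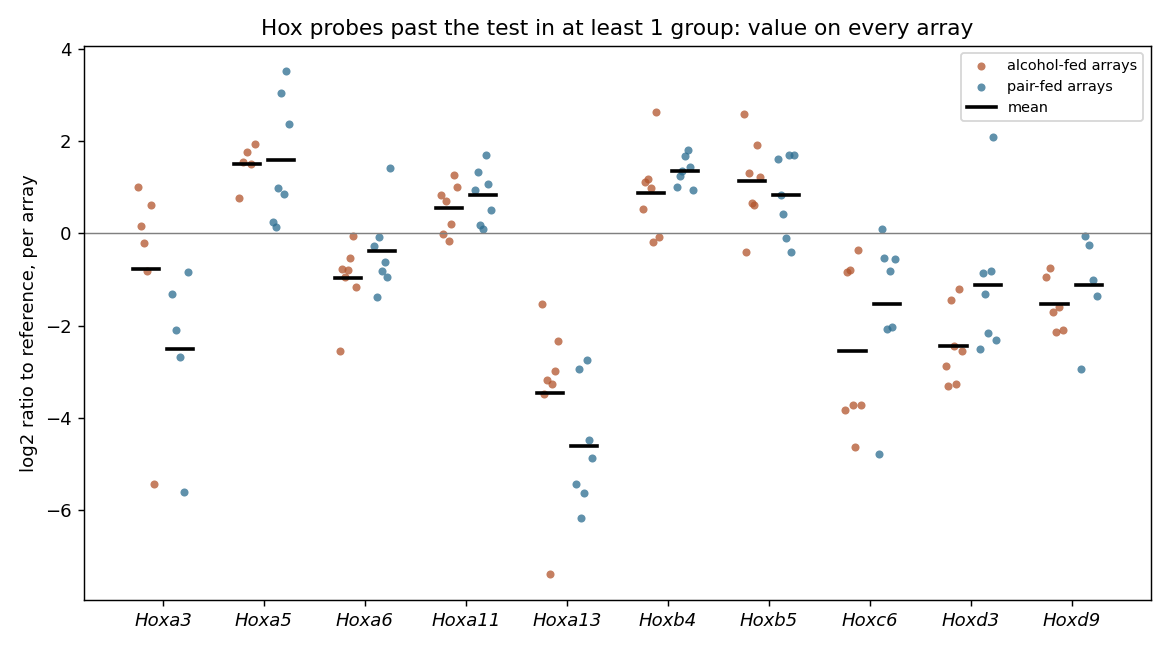
Centred log2 ratio to the reference on each array for the 10 Hox genes that passed the limma test against the reference in either group. Points are arrays, alcohol-fed and pair-fed side by side, and short lines are group means. All arrays of Hoxa13 lie at -1.53 or lower, and all arrays of Hoxa5 lie above 0.

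Hoxa13, the last gene of cluster a, which shapes the digits, the genital tubercle and the hindgut, lay farthest from the reference. Alcohol-fed arrays ran from -7.40 to -1.53 with a median of -3.19, and pair-fed arrays from -6.17 to -2.75 with a median of -4.88. Every one of the 14 arrays was below 0 and the groups overlapped. The mean was -3.46 ± 0.54 in alcohol-fed fetuses (11.0-fold lower, limma adjusted p = 0.000204) and -4.62 ± 0.54 in pair-fed fetuses (24.6-fold lower, limma adjusted p = 8.20e-06). Of all 20876 tested probes, 251 had a lower mean in alcohol-fed and 67 in pair-fed fetuses. Leaving out alcohol-fed replicate 4, the lowest array, moved the alcohol-fed mean to -2.80 (limma adjusted p = 0.000243) and the difference between the groups from 1.16 to 1.82 (limma adjusted p = 0.9982).

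Hoxa5, which patterns the neck and the lung, was higher than the reference in both groups. It read 0.77, 1.55, 1.77, 1.50 and 1.94 on the 5 alcohol-fed arrays with a value, a mean of 1.50 ± 0.47 (2.84-fold higher, limma adjusted p = 0.0299). Pair-fed arrays ran from 0.14 to 3.53 with a median of 0.99 and a mean of 1.60 ± 0.40 (3.03-fold higher, limma adjusted p = 0.0101). All 12 values were above 0, and the alcohol-fed values lay inside the pair-fed range. The 95% interval of the difference was -1.39 to 1.20.

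Hoxb4, known for its part in the growth of blood-forming stem cells and in the hindbrain, was also higher in both. Alcohol-fed arrays ran from -0.18 to 2.64 (median 0.98) and pair-fed arrays from 0.94 to 1.80 (median 1.36). The reading was above 0 on 5 of 7 alcohol-fed and on all 7 pair-fed arrays, and the alcohol-fed range held the whole pair-fed range. The means were 0.89 ± 0.30 (1.85-fold, limma adjusted p = 0.0403) and 1.36 ± 0.30 (2.56-fold, limma adjusted p = 0.00431).

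The promoters of these 3 genes are shown because they passed the test in both groups, a high and a low gene of cluster a beside a gene of cluster b. Each sequence is the 250 bases before the RefSeq start of the gene, 5' to 3' on the gene's strand, in build GRCm38.p6: Hoxa5 at chr6:52204588-52204837 on the minus strand, Hoxa13 at chr6:52260881-52261130 on the minus strand, and Hoxb4 at chr11:96318017-96318266 on the plus strand. Capitals mark matches on either strand to CCAAT (Hoxa5 and Hoxa13) or AGGTCA (Hoxb4), the core of many nuclear receptor sites.
Hoxa5: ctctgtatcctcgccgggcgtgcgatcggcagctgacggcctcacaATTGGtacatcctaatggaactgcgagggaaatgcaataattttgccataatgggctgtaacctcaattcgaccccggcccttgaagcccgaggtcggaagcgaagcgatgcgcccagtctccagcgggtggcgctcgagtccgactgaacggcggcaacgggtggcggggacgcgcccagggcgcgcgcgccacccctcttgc
Hoxa13: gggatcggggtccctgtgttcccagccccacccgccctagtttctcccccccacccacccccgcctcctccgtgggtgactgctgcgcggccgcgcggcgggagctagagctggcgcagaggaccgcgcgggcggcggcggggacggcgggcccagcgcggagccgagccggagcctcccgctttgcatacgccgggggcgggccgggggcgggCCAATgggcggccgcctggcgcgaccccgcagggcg
Hoxb4: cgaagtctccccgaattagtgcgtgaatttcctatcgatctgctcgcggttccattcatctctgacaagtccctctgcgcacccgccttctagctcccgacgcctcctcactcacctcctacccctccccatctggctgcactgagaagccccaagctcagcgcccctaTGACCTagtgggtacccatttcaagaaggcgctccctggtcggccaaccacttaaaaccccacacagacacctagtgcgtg

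The Hoxa13 promoter had 80.0% G and C and 35 CpG dinucleotides, that of Hoxa5 63.6% and 28, and that of Hoxb4 58.0% and 14. Over the 22 RefSeq promoters found for 20 of the Hox genes, the medians were 58.6% and 13, against 52.4% and 6 over all 32851 promoters of this length. Motifs were searched on both strands: AGGTCA was in 27.3% of Hox promoters and 14.0% of all, CCAAT in 54.5% and 33.8%, TATAAA in 13.6% and 12.4%, TTTATG (a core of caudal-type sites) in 18.2% and 10.8%, TAATTA (a core of homeodomain sites) in 9.09% and 4.84%, and TGATTNAT (a core of Pbx and Hox sites) in 9.09% and 2.82%. A match is a description of the letters in this window only.

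Among the early genes, with positions 1 to 4, 8 were tested. In alcohol-fed fetuses 1 was higher and 1 lower than the reference, and the same counts held in pair-fed fetuses, with medians of -0.48 and -0.50. Over all probes 8.02% were higher and 15.5% lower in alcohol-fed fetuses, and 7.86% and 13.5% in pair-fed fetuses. The counts were not tested against these shares. Hoxd3 was 5.44-fold lower in alcohol-fed fetuses (mean -2.44 ± 0.44, limma adjusted p = 0.000835), and its pair-fed mean was -1.13 ± 0.44 (limma adjusted p = 0.0763). Without pair-fed replicate 6 that pair-fed mean was -1.66 (limma adjusted p = 0.00313). Hoxa3 was 5.70-fold lower in pair-fed fetuses (-2.51 ± 0.80, limma adjusted p = 0.0368), on 5 arrays all below 0, and its alcohol-fed mean was -0.78 ± 0.73. This call ended without pair-fed replicate 2, 3 or 4 (adjusted p 0.0607 to 0.149, log2 -2.62 to -1.73). Hoxa2, which sets the identity of the neural crest behind the jaw arch, was at -0.36 ± 0.40 and -0.67 ± 0.40. Hoxa4, of the neck region, was at 0.55 ± 0.68 and -0.33 ± 0.68. Without alcohol-fed replicate 3 its alcohol-fed mean was 1.49 (limma adjusted p = 0.0435). The tested probe of Hoxb3, a hindbrain gene, was at -0.98 ± 0.56 and -1.19 ± 0.51. Its other probe ran from -2.68 to 1.49 (median -1.40) on 5 alcohol-fed arrays and -1.45 and 0.54 on 2 pair-fed arrays. Hoxc4 was at -0.61 ± 0.55 and 0.92 ± 0.50, on opposite sides of the reference, and Hoxd4 at 0.05 and -0.05. Hoxd1 read -0.17, -3.47, -5.72, 1.10 and -1.69 on 5 alcohol-fed arrays and -5.43, -1.24 and 1.18 on 3 pair-fed arrays, too few for the test.

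Of the genes of the neck and trunk, with positions 5 to 8, 9 were tested. In alcohol-fed fetuses 2 were higher and 2 lower, with a median of 0.04, and in pair-fed fetuses 1 was higher and 0 lower, with a median of 0.39. The shares over all probes were 8.02% higher and 15.5% lower in alcohol-fed fetuses, and 7.86% and 13.5% in pair-fed fetuses, with no test against them. Hoxb5, which acts in the neural crest of the gut wall and in the lung, ran from -0.39 to 2.59 (median 1.23) in alcohol-fed arrays, of which 6 of 7 were above 0. Its mean was 1.13 ± 0.35 (2.19-fold, limma adjusted p = 0.0281), and in pair-fed fetuses 0.83 ± 0.35 (limma adjusted p = 0.100). Hoxc5 was at 0.82 ± 0.36 and 1.01 ± 0.36, above 0 on all 7 alcohol-fed and 6 of 7 pair-fed arrays, with limma adjusted p = 0.105 and 0.0542. All 3 genes of position 5 had means above 0 in both groups, of which 2 passed the test in alcohol-fed and 1 in pair-fed fetuses.

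Hoxc6, a gene of the forelimb level of the spinal cord, was low. It ran from -4.64 to -0.37 (median -3.72) in alcohol-fed arrays and from -4.78 to 0.09 (median -0.82) in pair-fed arrays, wide and overlapping ranges. The alcohol-fed mean was -2.56 ± 0.57 (5.89-fold lower, limma adjusted p = 0.00438), and the pair-fed mean was -1.53 ± 0.57 (limma adjusted p = 0.0641). Hoxa6, of the thoracic region, was below 0 on all 7 alcohol-fed arrays (-2.56 to -0.06, median -0.80) and on 6 of 7 pair-fed arrays (-1.39 to 1.43, median -0.61). Its means were -0.97 ± 0.33 (1.96-fold lower, limma adjusted p = 0.0421) and -0.38 ± 0.33. Hoxb6 stood at -0.49 ± 0.43 in alcohol-fed and 0.39 ± 0.43 in pair-fed fetuses. Position 6 had all 3 alcohol-fed means below 0.

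Hoxa7 was at -1.86 ± 0.79 in alcohol-fed fetuses (limma adjusted p = 0.105) and at 0.13 ± 0.71 in pair-fed fetuses. Hoxb7 stood at 0.04 and -0.12, and Hoxd8 at 0.44 and 0.42, and neither gene passed the test. Hoxc8, of the lower forelimb level, read -1.41, -5.48 and -1.43 on 3 alcohol-fed arrays and -0.62, 2.76, -1.92, 2.91 and -3.24 on 5 pair-fed arrays. It was not tested, and its pair-fed values lay on both sides of the reference.

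Of the late genes, with positions 9 to 13, 15 were tested. In alcohol-fed fetuses 0 were higher and 2 lower (Hoxa13 and Hoxd9), with a median of 0.11, and in pair-fed fetuses 1 was higher (Hoxa11) and 1 lower (Hoxa13), with a median of -0.01. Beside these counts, all probes had 8.02% higher and 15.5% lower in alcohol-fed fetuses, and 7.86% and 13.5% in pair-fed fetuses, with no test between them. Hoxd9, which acts in the limb and the lumbar region, was below 0 on all 6 alcohol-fed arrays with a value (-2.15 to -0.75, median -1.64). It read -2.95, -0.05, -0.25, -1.01 and -1.37 on 5 pair-fed arrays, so it was low in both groups and the pair-fed range held the alcohol-fed range. The means were -1.54 ± 0.37 (2.90-fold lower, limma adjusted p = 0.00895) and -1.12 ± 0.41 (limma adjusted p = 0.0602).

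Hoxa11, needed with Hoxd11 for the forearm bones and for branching of the kidney, was higher in pair-fed fetuses. It was above 0 on all 7 pair-fed arrays (0.09 to 1.71, median 0.94) and on 5 of 7 alcohol-fed arrays (-0.17 to 1.26, median 0.72), overlapping ranges. The means were 0.83 ± 0.27 (1.78-fold, limma adjusted p = 0.0365) and 0.55 ± 0.27 (limma adjusted p = 0.142). Hoxd11 was at 0.95 ± 0.34 in alcohol-fed and 0.78 ± 0.34 in pair-fed fetuses (limma adjusted p = 0.0529 and 0.109), above 0 on 6 and 5 of 7 arrays. It passed in alcohol-fed fetuses under several alternatives, such as quantile normalization (1.24, limma adjusted p = 0.0218). Hoxc10, a gene of the hindlimb level of the spinal cord, was above 0 on all 7 alcohol-fed arrays (0.43 to 1.18, median 0.75) and on 4 of 7 pair-fed arrays (-0.71 to 1.45, median 0.19). Its means were 0.75 ± 0.28 (limma adjusted p = 0.0594) and 0.29 ± 0.28.

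Hoxb9 was above 0 on 5 of 7 alcohol-fed and all 7 pair-fed arrays, with means of 0.36 ± 0.25 and 0.60 ± 0.25 (limma adjusted p = 0.302 and 0.0957). Hoxa9, active in blood-forming cells, stood at 0.29 ± 0.25 and -0.01 ± 0.25, and Hoxc9, of the thoracic spinal cord, at -0.04 and -0.20. Hoxa10, which patterns the lumbar region and the uterus, was at -0.57 ± 0.53 and -0.78 ± 0.58, and Hoxd10, of the hindlimb level, at -0.43 and 0.24. Hoxc12 stood at 0.54 and 0.33, and in pair-fed fetuses without replicate 6 it was at 0.98 (limma adjusted p = 0.0445). Hoxd12, a gene of the distal limb, stood at -0.52 and -1.39 ± 0.60. Hoxb13, which acts in the tail and the prostate, stood at 0.11 and -0.30. Hoxc13, a gene of hair and nail, was at 0.68 and 0.51, and Hoxd13, the partner of Hoxa13 in the digits, at 0.03 and -0.18. With all arrays, none of these passed the test in either group.

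The position 13 genes are the paralogs of Hoxa13. Their means against the reference lay between 0.03 and 0.68 in alcohol-fed and between -0.30 and 0.51 in pair-fed fetuses, beside -3.46 and -4.62 for Hoxa13. No test between genes was made, and a ratio does not give the level of a gene beside another. Of the 10 positions with at least 2 tested genes, 3 had every gene on the same side of 0 in both groups: position 3 below, and positions 5 and 11 above. Position 3 left this count without alcohol-fed replicate 7, where the alcohol-fed mean of Hoxa3 was 0.15. Position 6 joined it without pair-fed replicate 5, where the pair-fed mean of Hoxb6 fell below 0. Both groups were read against the same pool, and how often other sets of probes this small share a side was not counted.

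**Figure D3:**
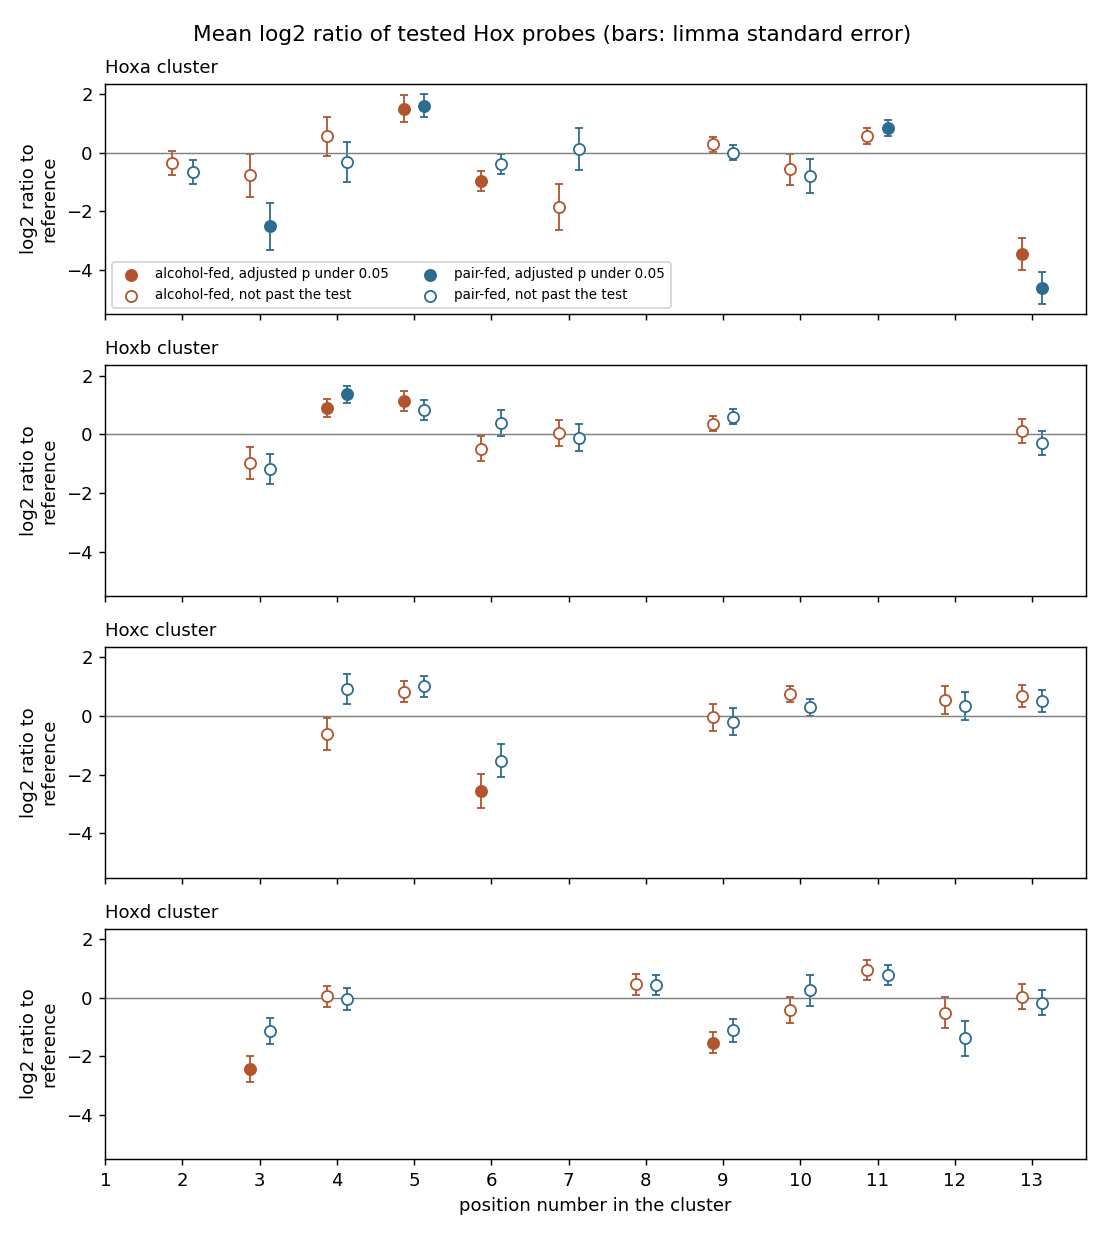
Mean centred log2 ratio to the reference by position number for the 32 tested Hox genes, with a panel for each cluster. Colours give alcohol-fed and pair-fed fetuses. Filled points passed the limma test against the reference (adjusted p under 0.05), and open points did not. Bars are limma standard errors. Genes of 1 position lie on both sides of 0 at most positions, and Hoxa13 stands at -3.46 and -4.62 below its paralogs.

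By cluster, cluster a (10 tested) had 1 gene higher and 2 lower in alcohol-fed fetuses, with a median of -0.46, and 2 higher and 2 lower in pair-fed fetuses, with a median of -0.36. Cluster b (7 tested) had 2 higher and 0 lower in alcohol-fed fetuses (median 0.11), and 1 higher and 0 lower in pair-fed fetuses (median 0.39). Cluster c (7 tested) had 1 lower gene in alcohol-fed fetuses and 0 called in pair-fed fetuses, with medians of 0.54 and 0.33. Cluster d (8 tested) had 2 lower genes in alcohol-fed fetuses and 0 called in pair-fed fetuses, with medians of -0.20 and -0.11. The median difference between the groups was 0.26, 0.16, 0.16 and 0.06 in clusters a, b, c and d, and 0.15, -0.19 and 0.21 at positions 1 to 4, 5 to 8 and 9 to 13. Over all probes 8.02% were higher and 15.5% lower in alcohol-fed fetuses, and 7.86% and 13.5% in pair-fed fetuses. The counts by cluster were not tested against these shares, and differences between clusters or positions were not tested. The median over all Hox genes on an array ran from -0.55 to 0.31 in alcohol-fed and from -0.23 to 0.40 in pair-fed arrays, overlapping ranges, and the SD of the Hox values within an array from 1.09 to 2.08.

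**Figure D4:**
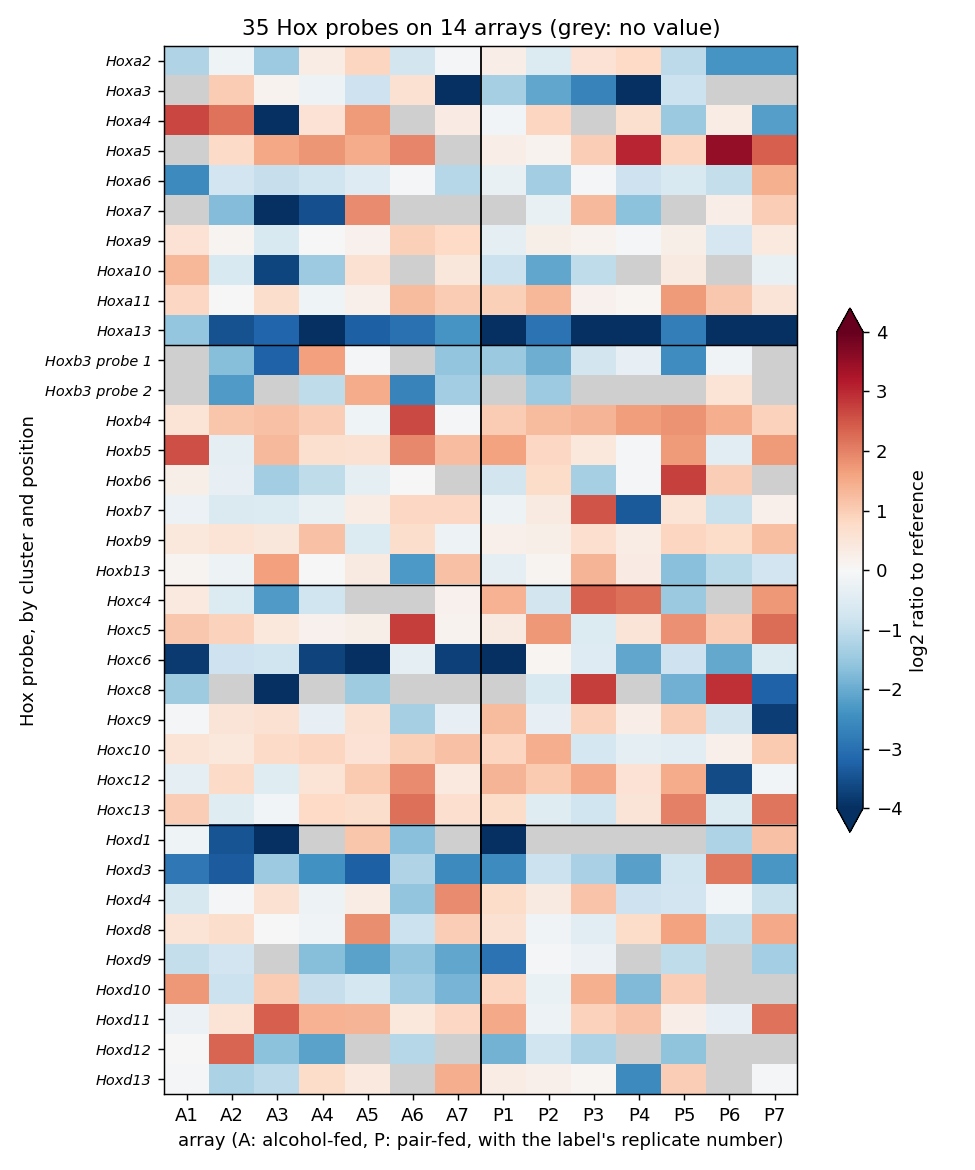
Centred log2 ratio of the 35 Hox probes, in order of cluster and position, on the 7 alcohol-fed and 7 pair-fed arrays. Colour gives the ratio to the reference, with values past 4 or -4 at the end colours, and grey cells have no value. On every array with a value Hoxa13 and Hoxd9 are below 0 on this centred scale and Hoxa5 is above 0, while each other probe differs in sign between arrays.

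Several of the calls against the reference lay close to the threshold and ended when 1 of several arrays was left out. In alcohol-fed fetuses the count of called Hox genes went from 8 to 5 without alcohol-fed replicate 3 or 6, where the share of all probes called was 17.5% and 19.1%. The call of Hoxa5 ended without alcohol-fed replicate 3, 4, 5 or 6 (adjusted p 0.0632 to 0.0784), with a log2 ratio of 1.40 to 1.51 beside 1.50. That of Hoxb5 ended without alcohol-fed replicate 1, 3, 6 or 7 (0.0554 to 0.0907, log2 ratio 0.89 to 1.12). That of Hoxb4 ended without alcohol-fed replicate 1, 2, 3, 4 or 6 (0.0546 to 0.126, log2 ratio 0.59 to 0.94). Hoxa6 lost its call without any 1 of alcohol-fed replicates 1, 2, 3, 4, 5 and 7 or without pair-fed replicate 1 (0.0501 to 0.135, log2 ratio -1.05 to -0.71). In pair-fed fetuses Hoxa11 lost its call without pair-fed replicate 1, 2, 5 or 6 (0.0658 to 0.112, log2 ratio 0.69 to 0.81). Hoxa13 in both groups, Hoxc6, Hoxd3 and Hoxd9 in alcohol-fed fetuses and Hoxa5 and Hoxb4 in pair-fed fetuses kept passing when any 1 array was left out.

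The other genes of the pathway were counted by gene in lists chosen from general knowledge, with earlier results of these data known. No list had a gene called between alcohol-fed and pair-fed fetuses. Over all probes 8.02% were higher and 15.5% lower in alcohol-fed fetuses, and 7.86% and 13.5% in pair-fed fetuses. The counts of the lists were not tested against these shares. A listed gene counted as called if any of its probes was. Of 6 tested cofactors of the TALE class, which bind DNA together with Hox proteins, 0 were higher in either group, 2 were lower in alcohol-fed fetuses and 1 in pair-fed fetuses. Meis1 was at -3.46 ± 0.44 and -2.32 ± 0.44 (limma adjusted p = 4.26e-05 and 0.00177), and Meis2 was lower in alcohol-fed fetuses at -1.06 ± 0.31 (limma adjusted p = 0.0214). The medians of the list were -0.69 and -0.60. Of 12 tested regulators that act above the clusters, such as Cdx factors, retinoic acid receptors and segment genes of the hindbrain, 2 were higher and 3 lower in each group, with medians of 0.09 and -0.17. Egr2, which switches on Hox genes in the hindbrain, was at 4.97 ± 0.38 and 5.16 ± 0.38. The other higher gene, Aldh1a2, was at 1.00 ± 0.33 and 0.99 ± 0.33 (limma adjusted p = 0.0364 and 0.0400). Cdx4, a caudal-type activator of Hox genes, was at -2.50 ± 0.30 and -2.27 ± 0.30. Rara was lower by 1 probe in both groups (-2.23 and -1.71) and by another in alcohol-fed fetuses (-1.29). Rarg was lower by 1 probe in both groups (-2.25 and -2.99), but other probes of both receptors lay on the other side of 0.

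Polycomb and trithorax proteins, which keep Hox genes silent or active, had 2 of 21 tested genes higher and 3 lower in alcohol-fed fetuses, and 2 higher and 2 lower in pair-fed fetuses, with medians of 0.48 and 0.27. All probes had 8.02% higher and 15.5% lower in alcohol-fed fetuses, and 7.86% and 13.5% in pair-fed fetuses. Kmt2a, the trithorax methyltransferase that keeps Hox genes active, was at -1.69 ± 0.45 and -2.18 ± 0.41, and Ezh1, a Polycomb methyltransferase, at 1.42 ± 0.38 and 1.63 ± 0.38. Kmt2b was at -1.24 and -2.22 by 1 probe and at -0.10 and 0.10 by the other. Cbx8 was lower in alcohol-fed fetuses (-1.12 ± 0.37) and Suz12 higher in pair-fed fetuses (0.82 ± 0.26). Of 8 tested homeobox genes beside or related to the clusters, Pdx1 was higher (1.83 ± 0.38) and Gsx1 lower (-1.75 ± 0.38) in alcohol-fed fetuses, and 0 passed in pair-fed fetuses.

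Genes that Hox proteins regulate or work with in kidney, limb and body axis had 0 of 14 higher and 5 lower in each group, with medians of -0.46 and -0.75. Osr1 and Fgf10, genes of early kidney and limb outgrowth, were at -1.72 ± 0.42 and -1.49 ± 0.41 in alcohol-fed and at -1.84 ± 0.42 and -1.93 ± 0.41 in pair-fed fetuses. Pax2 was lower in both groups (-1.85 ± 0.49 and -1.59 ± 0.49), as was Hand2 (-2.80 ± 0.89 and -3.26 ± 0.82). Tbx5 passed in alcohol-fed fetuses (-1.16 ± 0.32) and Ret in pair-fed fetuses (-1.39 ± 0.32), and no listed gene passed the test between the groups. Over all probes 23.5% were called in alcohol-fed fetuses (8.02% higher, 15.5% lower) and 21.3% in pair-fed fetuses (7.86% higher, 13.5% lower). These are shares of probes, while a listed gene counted as called if any of its probes was, so the measures are unlike.

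Tissue content was read from marker lists, which as ratios show only differences from the pool and cannot show that a tissue was present or absent. Over all probes 8.02% were higher and 15.5% lower in alcohol-fed fetuses, and 7.86% higher and 13.5% lower in pair-fed fetuses. The counts of markers were not tested against these shares. Kidney markers had 1 of 8 higher and 5 lower in alcohol-fed fetuses and 0 higher and 4 lower in pair-fed fetuses, and their mean on an array ran from -1.48 to -0.73 and from -1.51 to 0.13. Pax2 and Six2 are on this list and on that of Hox-linked genes. Skeletal muscle markers had 3 and 2 of 6 lower, with array means of -2.32 to 0.19 and -1.47 to -0.33, and erythroid markers 2 of 4 lower in each group, with array means of -2.41 to -0.59 and -2.33 to 0.04. Limb and skeleton markers had 1 of 7 lower in each group (-1.04 to 0.17 and -1.46 to -0.05), and liver markers 1 and 2 of 7 lower (-0.61 to 0.46 and -1.14 to -0.05). Of 11 forebrain markers 1 was higher and 1 lower in alcohol-fed and 2 were lower in pair-fed fetuses (-0.40 to 0.26 and -0.94 to 0.60). Of 10 hindbrain and spinal cord markers 0 passed in alcohol-fed and 2 were lower in pair-fed fetuses (-1.30 to -0.02 and -1.18 to 0.10). No marker passed between alcohol-fed and pair-fed fetuses. Their part in the Hox values against the reference was not tested.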

How the data were processed

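RNA of 14 fetal samples was measured on two-colour arrays. Labelling and isolation used commercial kits, per the labels' protocols. The deposited table holds a log2 ratio for each probe on each array. That they are log2 was read from the values, whose limits (16.61 and -9.966) equal log2 of 100000 and of 0.001. How background and normalization were handled is not given in the sources used. Signal strengths were not used, so depth over background is unknown.

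Values of exactly 0 and at the upper limit were set to missing as placeholders, and each array was centred on its median. All 14 arrays entered 1 fit with limma 3.58.1 in R 4.3.3 (lmFit, eBayes, two-sided), with p-values adjusted by Benjamini-Hochberg over 20876 probes and a threshold of 0.05. Errors are limma standard errors. The fit was tested on simulated data. No pair of arrays shared over 0.287% identical values. Genes printed with array values were those past the threshold, or the 6 with the smallest p where none passed. Of the other lists up to 4 genes with the smallest p were named, and Aldh1a2 was added as the other higher regulator. Members and lists were chosen with earlier results of these data known. Gene symbols come from the platform annotation, and all 35 probes matched RefSeq (GRCm38.p6) by gene number. Where probes of a listed gene disagreed, both are given. Alternatives were other scalings, placeholders kept, other filters, array weights, robust eBayes, a replicate block, exact permutation and leaving out arrays.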

Additional observations from a re-analysis of the deposited data

Results flagged for a closer look

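Single arrays stood far from the rest of their group in 8 of 67 groups of 4 to 7 Hox values, by the gap to the nearest array as a share of the whole range (Dixon's 95% critical value). That is 11.9% of these groups, beside 8.94% of such groups over all probes by the same rule. Chance gives about 1 in 20 for normal values. Low alcohol-fed arrays were replicate 7 for Hoxa3 (-5.44), replicate 3 for Hoxa4 (-4.16) and replicate 4 for Hoxa13 (-7.40), and replicate 6 was high for Hoxc5 (2.77). Low pair-fed arrays were replicate 7 for Hoxc9 (-3.77), replicate 6 for Hoxc12 (-3.58) and replicate 4 for Hoxd13 (-2.55), and replicate 6 was high for Hoxd3 (2.10). Of these groups, the alcohol-fed Hoxa13 group passed the test against the reference.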

How the results depend on the processing

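With any 1 array left out, the number of Hox genes called against the reference ran from 5 to 9 in alcohol-fed and from 4 to 6 in pair-fed fetuses, and 0 were called between the groups. Leaving out the 3 arrays that correlated most (chosen after seeing the data) gave 5 in alcohol-fed fetuses, with Hoxa6 and Hoxb4 lost. Hoxa5 then had too few arrays for the test in either group. In pair-fed fetuses it gave 4, with Hoxa3 and Hoxa11 also lost and Hoxc6 and Hoxd9 gained. Leaving out the 3 arrays with the most placeholders (chosen after seeing the data) ended the pair-fed calls of Hoxa5 (limma adjusted p = 0.0794) and Hoxa11. It gained Hoxd3 and Hoxc12 there. In alcohol-fed fetuses it ended the calls of Hoxb4 and Hoxb5 and gained Hoxd11. For the called genes and the 6 with the smallest p between the groups, 461 values under an alternative were compared. Of these, 419 kept their side of the threshold, 42 lost the call and 0 changed sign. Many of the 461 had little or no room to move. Leaving out a pair-fed array left each alcohol-fed mean as it was (Hoxa13 at -3.46), and the reverse. Robust eBayes also reused the main estimates. The 6 genes between the groups started at a limma adjusted p of 0.9996, far from the threshold. The 419 is thus not a measure of how stable the calls were. Calls were also gained, for 4 other genes in alcohol-fed and 6 in pair-fed fetuses under at least 1 alternative. These were Hoxd11, Hoxc10, Hoxa4 and Hoxb3 in alcohol-fed fetuses. In pair-fed fetuses they were Hoxc5, Hoxc6, Hoxd3, Hoxd9, Hoxc12 and Hoxd12. With quantile normalization the limma adjusted p was 0.0337 for Hoxc10 in alcohol-fed and 0.0316 for Hoxc5 in pair-fed fetuses. The 0 calls between the groups held under every alternative. Under exact permutation this 0 was nearly fixed in advance by the smallest p of that test.

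Replicate numbers were not used as pairs in the main fit. The deviations of same-numbered arrays from their group means correlated at -0.0834 to 0.185, and 2 of 7 matched their own number best. Such correlations cannot show whether equal numbers mark paired animals. A replicate block, which could be fitted for 26 Hox genes, called 0 between the groups, 6 in alcohol-fed fetuses (Hoxa6 and Hoxb4 lost) and 6 in pair-fed fetuses (Hoxd3 and Hoxc6 gained, Hoxa11 lost). Array weights and kept placeholders also ended the pair-fed call of Hoxa3 (limma adjusted p = 0.0533 and 0.0970), and values as deposited that of Hoxa6 in alcohol-fed fetuses (0.0781, with a log2 ratio of -0.85 beside -0.97). The cause was not tested. With a value required on all arrays Hoxd9, Hoxa5 and Hoxa3 could not be tested.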

Other observations

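Antisense transcripts of the clusters, looked at after their values were seen, had 3 tested probes. The strand a probe reads is not stated, and antisense and sense genes overlap. Hoxa11os, on the opposite strand of Hoxa11, was lower than the reference in alcohol-fed fetuses (-1.51 ± 0.48, limma adjusted p = 0.0302), with arrays from -4.08 to 0.02 (median -1.07) and 6 of 7 below 0. In pair-fed fetuses it was at -1.25 ± 0.48 (limma adjusted p = 0.0685), also with 6 of 7 arrays below 0. Hoxa11 itself lay above the reference in both groups (0.55 ± 0.27 and 0.83 ± 0.27). Hoxd3os1 was above 0 on all 6 alcohol-fed arrays with a value (mean 1.08 ± 0.45, limma adjusted p = 0.0857) and on 5 of 7 pair-fed arrays (0.36 ± 0.41), while Hoxd3 lay below the reference in both groups. Hoxaas3 was at 0.35 ± 0.46 and 0.44 ± 0.46. None of the 3 passed between alcohol-fed and pair-fed fetuses (limma adjusted p = 0.9996 for each), and the opposite signs of sense and antisense were not tested.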
